A study of Mus musculus with 35 samples.

Results

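The comparison set out here is between late and early days of a reprogramming series that lacked the factor Esrrb. Its late libraries came from days 5, 6 and 7 and its early libraries from days 1, 2 and 3, 6 of the 35 libraries of the study, taken by the arm and day in the sample names. In both groups the cells were mouse embryonic fibroblasts (E13.5, passage 2) that carried a green fluorescent reporter of Oct4 (Pou5f1), from CBA/CaJ × C57BL/6J males mated with 129 strain females. Both groups had been infected for 48 hours with retroviruses for Jdp2, Glis1 and Sall4, and both were kept in the induction medium iCD3 with a Rock inhibitor, and the names separate them by day alone. The other leave-out arms lacked Jdp2, Glis1 or Sall4 in place of Esrrb, with 1 library per day, and the full set of 4 factors (JEGS) had libraries of days 2, 4 and 6. A treatment label gives every sample all 4 factors and the same induction time, whatever its day; it contradicts the names, which were followed.

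Each day is 1 library, and the labels do not say whether days came from separate cultures. The series is read as 1 culture sampled over time, and p-values measure the spread between its libraries, with any drift within days 1 to 3 or days 5 to 7 counted as spread. Totals of the 6 libraries were 1444905 to 1651712 expected counts, and a single count was worth 0.605 to 0.692 CPM (counts per 1e6 of the scaled library). The labels do not tie library kits or sequencing runs to single libraries, so a batch and the day cannot be told apart.

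Reprogramming of fibroblasts involves the loss of mesenchymal gene expression, a gain of epithelial genes such as E-cadherin and, later, activation of the endogenous pluripotency network, to which the nuclear receptor Esrrb belongs. Glycolysis genes are often raised during the same process. Many of them are targets of the hypoxia-inducible factors, transcription factors that bind short DNA words such as ACGTG and that are controlled largely by protein stability.

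Of 14687 genes tested, 1047, or 7.13%, had an adjusted p under 0.05 (edgeR quasi-likelihood test, Benjamini-Hochberg). Of these 444 were higher in the late days (3.02%) and 603 lower (4.11%). The median log2 change was 1.60 among the higher genes and -1.49 among the lower ones, against 0.0017 over all genes tested. The count rested on single libraries: it was 403 without day 1, 128 without day 2, 2804 without day 5, 244 without day 6 and 574 without day 7. Day 4 was in neither group, and it lay beyond every early library in the direction of the call for 340 of the 444 higher and 507 of the 603 lower genes. It had reached the nearest late library in 68 and 113 of them. Of 120 named genes that passed, 27 also passed in each of the 6 fits that left out 1 library, among them Bnip3, Slc16a3, Ak4, Pfkl, Cdh1, Col1a2, Snai2, Bmp2 and Jdp2. Others passed in only 1 of these fits, among them Ndrg1, Ocln, Krt7, Thy1, Plau, Junb, Klf2, Zfr2, Hspa5 and Calr.

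Glycolysis genes were higher in the late days as a group. Of 20 members tested, 13 were higher and none lower, with a median log2 change of 1.19. Every late library lay above every early one in each of the 13, as in 442 of the 444 higher genes overall and 15.4% of all genes tested. Without day 2 the count was 4, and it was 11 to 14 when any other library was left out. Among genes of the hypoxia response, 7 of 17 were higher and none lower, with a median of 0.73; Slc2a1 is on both lists. Without day 1, 2, 6 or 7 the hypoxia count was 4, 3, 3 and 4.

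The promoters of 4 of these genes that hold ACGTG, and of Pfkl, a large riser that does not, show where that word lies relative to the start of transcription. Each line runs from 250 bases before to 50 bases after the RefSeq start (GRCm38.p6), 5′ to 3′ on the gene's strand, and capitals mark ACGTG or its reverse complement CACGT.
Bnip3 (chr7:138909457-138909756, minus strand): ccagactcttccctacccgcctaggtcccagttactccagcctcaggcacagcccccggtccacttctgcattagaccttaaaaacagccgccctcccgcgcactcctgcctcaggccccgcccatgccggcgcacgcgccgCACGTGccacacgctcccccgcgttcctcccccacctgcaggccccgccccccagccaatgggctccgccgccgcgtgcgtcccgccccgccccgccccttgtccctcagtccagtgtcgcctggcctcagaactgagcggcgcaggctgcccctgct
Slc16a3 (chr11:120948817-120949116, plus strand): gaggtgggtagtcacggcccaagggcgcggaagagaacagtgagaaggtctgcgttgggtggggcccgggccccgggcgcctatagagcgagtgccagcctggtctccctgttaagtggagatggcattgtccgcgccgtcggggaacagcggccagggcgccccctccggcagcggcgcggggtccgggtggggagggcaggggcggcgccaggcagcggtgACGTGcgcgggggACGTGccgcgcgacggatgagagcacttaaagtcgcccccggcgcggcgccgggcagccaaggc
Pgk1 (chrX:106186850-106187149, plus strand): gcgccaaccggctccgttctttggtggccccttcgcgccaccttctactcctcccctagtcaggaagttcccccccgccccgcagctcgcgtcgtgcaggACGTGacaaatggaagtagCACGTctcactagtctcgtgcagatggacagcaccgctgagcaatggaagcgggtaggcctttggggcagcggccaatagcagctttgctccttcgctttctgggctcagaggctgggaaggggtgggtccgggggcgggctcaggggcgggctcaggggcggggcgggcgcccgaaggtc
Slc2a1 (chr4:119108495-119108794, plus strand): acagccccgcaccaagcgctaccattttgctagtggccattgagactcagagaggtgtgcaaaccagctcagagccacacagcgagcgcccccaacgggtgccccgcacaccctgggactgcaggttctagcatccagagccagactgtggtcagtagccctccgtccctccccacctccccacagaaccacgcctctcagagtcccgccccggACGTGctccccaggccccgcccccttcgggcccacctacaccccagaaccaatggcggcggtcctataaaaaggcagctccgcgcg
Pfkl (chr10:78009758-78010057, minus strand): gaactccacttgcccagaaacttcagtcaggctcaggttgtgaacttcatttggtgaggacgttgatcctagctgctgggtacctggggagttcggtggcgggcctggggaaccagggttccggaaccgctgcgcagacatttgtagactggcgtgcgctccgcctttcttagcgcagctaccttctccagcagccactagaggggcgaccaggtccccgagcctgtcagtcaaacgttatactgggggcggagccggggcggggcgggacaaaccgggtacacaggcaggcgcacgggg

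In Bnip3 both words overlap in a single CACGTG, which begins 108 bases before the start and is also the binding word of Myc and related factors. Slc16a3 holds ACGTG at 27 and 14 bases before the start and Slc2a1 at 36 bases. In Pgk1 the words begin at 150 and 131 bases before the start. Of the 19 higher genes of both lists together, 17 had a window and 13 of those held the word (76.5%). Of the 16 members that did not pass, 15 had a window and 11 held it (73.3%), against 21.8% of 27025 genes with a window and 29% of the genes tested here that had one. The hypoxia list holds genes of that response and the glycolysis list genes of a pathway, many of them known targets of the hypoxia-inducible factors. The share of matches therefore depends on the choice of genes, and a match is no evidence of binding. Only ACGTG and its reverse complement were searched for. Close words, such as the GCGTG that the Pfkl window holds, were not marked or counted.

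Bnip3, a receptor for the removal of mitochondria, stood at 43.4, 107 and 87.6 CPM on days 5, 6 and 7, against 1.18, 1.27 and 0 CPM on days 1, 2 and 3. Slc16a3, which exports lactate, had 209.9, 235 and 223 CPM in the late libraries, against 22.5, 10.2 and 18.6 CPM in the early ones. Ak4, a mitochondrial adenylate kinase, had 55.9, 51.3 and 56.5 CPM late and 5.92, 5.73 and 6.19 CPM early. In all 3 genes the lowest late library was several fold above the highest early one, and Ak4 was nearly level within each group. Their log2 changes were 6.49 ± 0.58 (SE; adjusted p = 0.000505), 3.67 ± 0.27 (adjusted p = 0.000382) and 3.15 ± 0.26 (adjusted p = 0.000385), all by edgeR. On day 4 they were still at 5.63, 25.03 and 15.02 CPM.

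Most enzymes of the pathway after its first step were among the higher genes. Pfkl, the liver form of the committing enzyme phosphofructokinase, had 309, 363 and 258 CPM late and 53.3, 46.4 and 50.7 CPM early, a log2 change of 2.60 ± 0.20 (adjusted p = 0.000382, edgeR). Pfkfb3, which makes the activator of that enzyme, had 58.7, 94.4 and 214 CPM late and 24.3, 19.7 and 21.4 CPM early (2.46 ± 0.42). Pgk1 had 827, 1391 and 1141 CPM late and 397, 260.2 and 287 CPM early (1.80 ± 0.24), with Tpi1 at 1.59 ± 0.18. Gpi1, Eno1, Pkm, Ldha, Aldoa and Aldoc were also higher, by 0.997 to 2.16. Among glucose transporters, Slc2a3 rose through the whole series, with 95.4, 138 and 139 CPM late and 13.6, 23.5 and 43.9 CPM early (2.17 ± 0.35). Slc2a1 was level in the early days and at 183, 309 and 416 CPM late, against 97.1, 74.4 and 82.2 CPM early (1.81 ± 0.28). Members that did not pass included the hexokinases Hk1 and Hk2, at 0.25 and 0.17, and Gapdh at 0.43, whose libraries overlapped.

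Several of these levels had been high before induction. On day 0, 10 of the 13 higher glycolysis genes stood above every early library, for example Pgk1 at 824 CPM and Slc16a3 at 102 CPM, and for 1 of them, Eno1, day 0 was above every late library as well. Summed over the list, the level was 15961 to 18749 CPM late and 7870 to 10442 CPM early, beside 17487 CPM on day 0. Bnip3 and Ak4, at 16.7 and 10.6 CPM on day 0, were higher in every late library than at any earlier time.

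**Figure D1:**
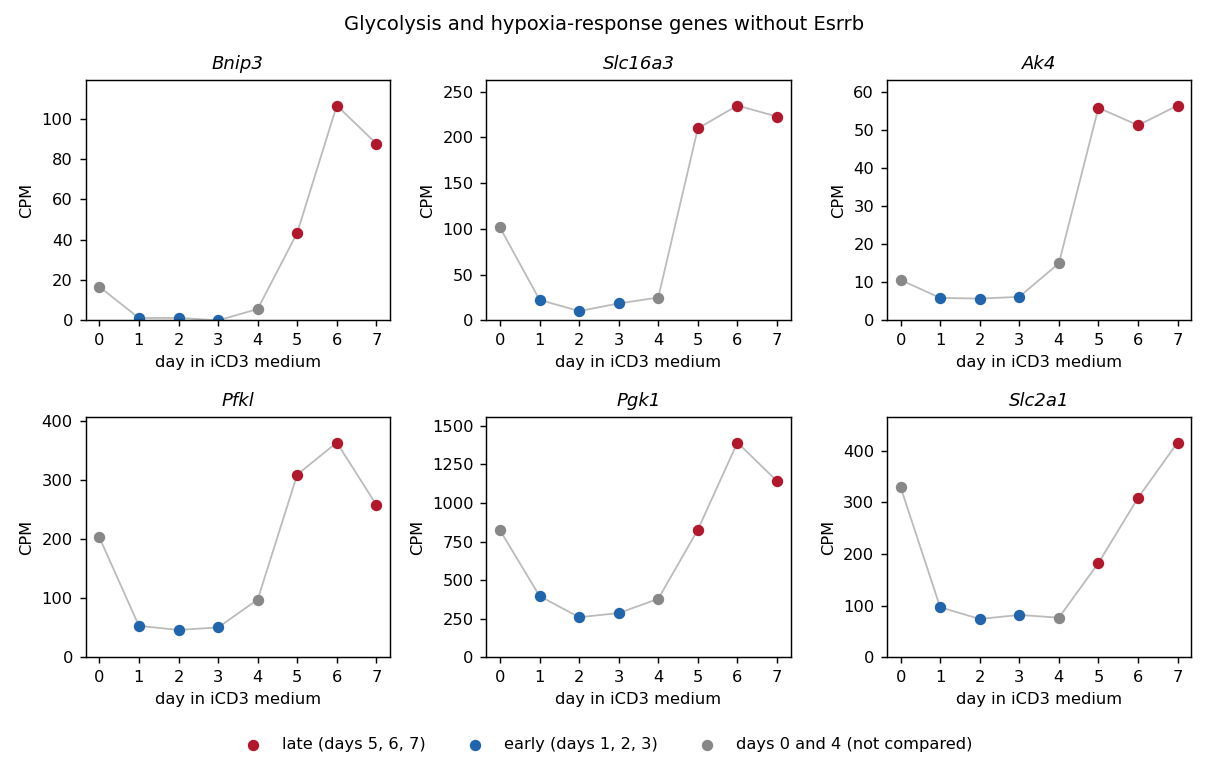
Level in CPM (linear axis from 0) of 6 glycolysis and hypoxia-response genes by day in the series without Esrrb, 1 library per day; red points are days 5, 6 and 7, blue points days 1, 2 and 3, and grey points days 0 and 4. Each gene is low on days 1 to 3 and higher on days 5 to 7, and Pgk1 and Slc2a1 were already high on day 0.

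Within the hypoxia list, Ndrg1, a stress-response gene, had 15.8, 66.8 and 68.8 CPM late and 5.33, 17.2 and 10.1 CPM early, a log2 change of 2.19 ± 0.54 (adjusted p = 0.0366, edgeR) with day 5 inside the early range. P4ha1, a collagen prolyl hydroxylase, changed by 1.52 ± 0.28 and Mxi1, a Myc antagonist, by 1.38 ± 0.31. Ankrd37 had 22 counts in the late libraries and 1 in the early ones, a ratio of 21.3 with an exact 95% counting interval of 3.44 to 878. The classical targets Vegfa (0.47 ± 0.26), Adm (1.20 ± 0.96) and Car9 (0.48 ± 0.92) did not pass and their libraries overlapped. Hif1a itself, chosen for mention after its values were seen, was lower, at 93.7, 67.4 and 82.3 CPM late and 162, 158 and 131 CPM early (-0.92 ± 0.20, adjusted p = 0.0214, edgeR). Outside the list but among the largest rises were Cox4i2, a hypoxia-responsive subunit of cytochrome c oxidase, with 92 counts late and 3 early (ratio 29.7, interval 9.83 to 146), and the mitochondrial protein Mgarp, with 55 and 3 counts (ratio 17.7, interval 5.76 to 88.6). None of 34 nuclear genes of oxidative phosphorylation and none of 12 mitochondrially encoded genes passed in edgeR's test or DESeq2's, with medians of -0.14 and -0.25. At an unadjusted p under 0.05, 2 of the nuclear genes were lower and 0 of the mitochondrial ones changed.

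**Figure D2:**
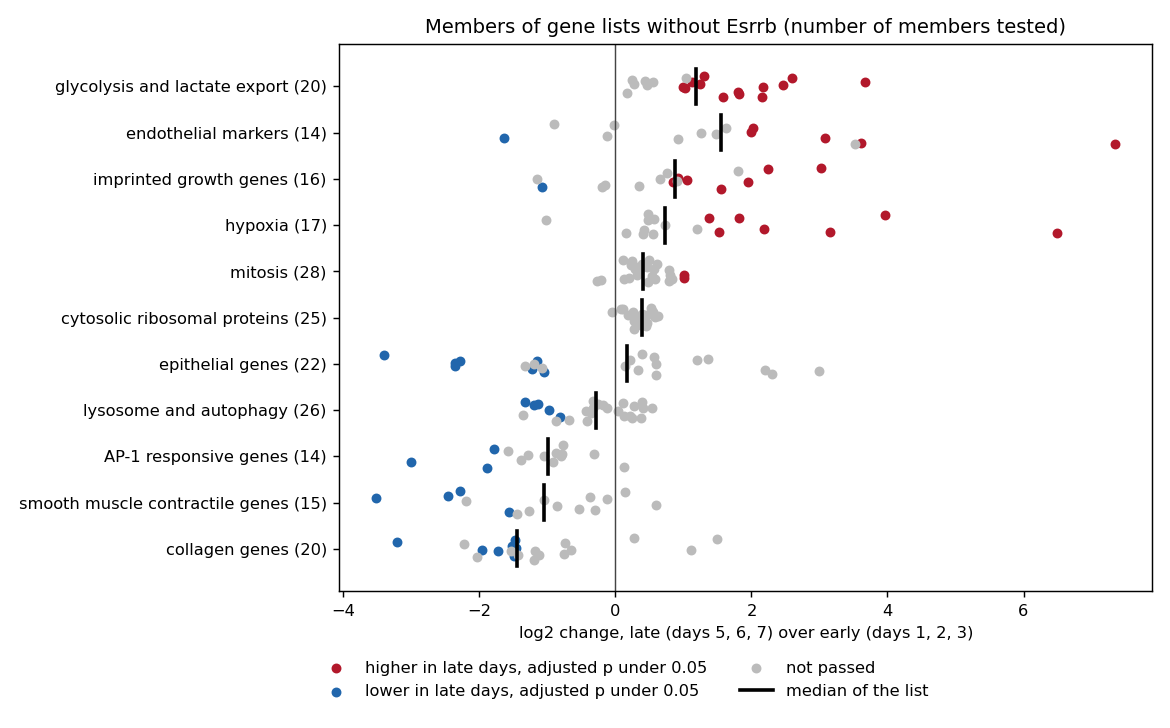
Log2 change of late over early days for each tested member of 11 gene lists in the series without Esrrb; red members passed as higher, blue members as lower, grey members did not pass, and black bars are list medians. Glycolysis members lie right of 0, collagen members mostly left of it, and the epithelial list divides although its median is 0.18.

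Epithelial genes divided, and all that passed were lower. Of 22 members, 7 were lower and none higher, with a median of 0.18. Without day 1, 2 or 6 the count was 3, 2 and 2. Cdh1, which encodes E-cadherin, was at 73.9, 35.1 and 34.7 CPM late and 229, 221 and 279 CPM early, a log2 change of -2.36 ± 0.29 (adjusted p = 0.0019, edgeR). It was thus high already on day 1, against 24.3 CPM on day 0, still at 201 CPM on day 4, and lower from day 5. The simple-epithelium keratin Krt8 had 10.7, 10.4 and 9.41 CPM late and 223, 47.7 and 47.3 CPM early (-3.40 ± 0.60, adjusted p = 0.0101, edgeR), with day 1 far above the rest. Its partner Krt18 changed by -1.15 ± 0.23, and Krt7 by -2.35 ± 0.54. The tight junction gene Ocln had 3.39, 2.30 and 0.588 CPM late and 10.7, 12.1 and 8.45 CPM early (-2.29 ± 0.58), and the junction protein gene Jup changed by -1.05 ± 0.19. Ocln and Krt7 each passed in 1 of the 6 fits with a library left out. Krt19 was the seventh. Epcam went the other way without passing, at 10.2, 10.9 and 6.47 CPM late and 0.592, 1.27 and 3.38 CPM early (2.31 ± 0.63, adjusted p = 0.0505, edgeR). The 6 epithelial markers, all detected, summed to 124 to 158 CPM late and 430.1 to 634 CPM early. That sum was mostly Cdh1, Krt8 and Krt18, which are among the lower genes above, so its fall is no separate check on cell type. Of the other markers, Cldn6 like Epcam did not fall, at 2.82, 4.03 and 5.88 CPM late and 0, 1.91 and 2.82 CPM early. Esrp1 had 1.69, 1.73 and 0.588 CPM late and 0.592, 1.27 and 1.69 CPM early. In bulk RNA, fewer cells of a type and less RNA per cell cannot be told apart.

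Of 21 genes of fibroblast and mesenchymal identity, 2 were higher and 3 lower, with a median of -0.35. Snai2 (Slug), a repressor of Cdh1, had 60.9, 153 and 201 CPM late and 17.8, 28.6 and 25.9 CPM early, a log2 change of 2.49 ± 0.40 (adjusted p = 0.00679, edgeR). Twist1, another transcription factor of mesenchyme, had 152, 232 and 148 CPM late and 45.6, 63.0 and 78.8 CPM early (1.48 ± 0.25). The related factors Twist2 (-0.35 ± 0.24) and Prrx1 (0.19 ± 0.19) did not pass. The 3 lower members were S100a4 at -3.79 ± 0.86, Thy1 at -1.32 ± 0.34 and the matrix gene Fn1 at -0.92 ± 0.20. The lower count was 0 without day 1 or day 6, 1 without day 2 or day 7 and 0 by limma on TPM. S100a4 fell mostly within the early days, with 62.8 CPM on day 1 and 8.27 and 9.57 CPM on days 2 and 3.

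On the collagen list 7 of 20 members tested were lower and none higher, with a median log2 change of -1.45. The cartilage collagen Col2a1, which is not on that list, was higher (2.71 ± 0.39). Without day 1, 2 or 6 the count of lower collagen genes was 4, 3 and 3. Much of the loss came before or within the early days. Summed over the list, the level was 17030 CPM on day 0 and 9290, 5755 and 4356.5 CPM on days 1, 2 and 3. On days 5, 6 and 7 it was 2244, 2451 and 3263 CPM. Col1a2, a chain of the main fibrillar collagen, had 245, 219 and 283 CPM late and 1059, 1130 and 674 CPM early (-1.97 ± 0.23, adjusted p = 0.00146, edgeR). Its partner chain Col1a1 did not pass, at -0.76 ± 0.38 with overlapping libraries. Col8a2 changed by -1.73 ± 0.19 and the basement membrane chain Col4a1 by -1.52 ± 0.24. Among other matrix genes, 4 of 21 were lower and 2 higher. The lower ones were Tnc at -2.39 ± 0.63, Fbln2 at -1.85 ± 0.38, Bgn at -1.41 ± 0.26 and Eln at -0.93 ± 0.19, and P4ha1 was among the higher ones. The count of lower matrix genes was 2 without day 1, 0 without day 2 or day 6 and, by limma, 1 on log2(TPM + 1) and 0 on log2(TPM + 0.1).

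Of 15 contractile genes of smooth muscle type, which cultured fibroblasts express strongly, 4 were lower and none higher, with a median of -1.06. The count was 1 without day 1, 0 without day 2 and 1 without day 6. Acta2, smooth muscle actin, had 7.90, 9.79 and 19.99 CPM late and 311, 77.0 and 34.9 CPM early (-3.52 ± 0.72, adjusted p = 0.0181, edgeR). Most of its loss preceded the comparison, since it stood at 7028 CPM on day 0. Tagln, at 4013 CPM on day 0, also passed as lower (-2.29 ± 0.60, adjusted p = 0.0442, edgeR), although its groups overlapped, and it passed in 2 of the 6 fits with a library left out. Myh11 and Cald1 changed by -2.46 ± 0.50 and -1.56 ± 0.36. All 12 fibroblast markers were detected, with a sum of 3293 to 3896 CPM late and 4505 to 7836 CPM early. That sum was mostly Fn1, Col1a1, Col1a2 and Vim, so it is no reading of fibroblast content separate from the matrix genes. Fn1 alone had 1850, 1894 and 1998 CPM late. Single markers went both ways, with Twist1 higher late and Thy1 lower, and Dcn and Lum were near 0. The part of fibroblast content in the falls of matrix and contractile genes was not tested.

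**Figure D3:**
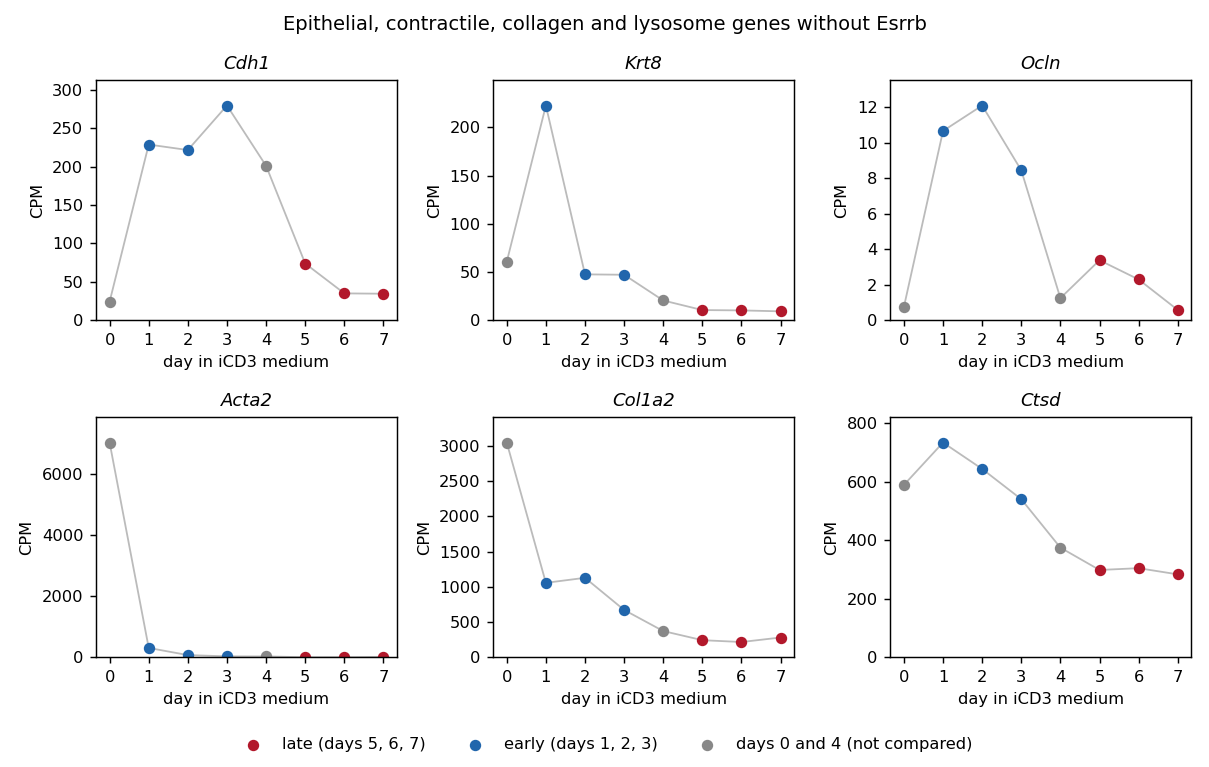
Level in CPM (linear axis from 0) of 6 genes that were lower late, by day in the series without Esrrb, 1 library per day; red points are days 5, 6 and 7, blue points days 1, 2 and 3, and grey points days 0 and 4. Cdh1 is high from day 1 to day 4 and low from day 5, whereas Acta2 lost most of its day 0 level by day 1.

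Of 14 endothelial genes tested, 5 were higher in the late days and 1 lower, with a median of 1.56. Their summed level was not higher, at 476 to 814 CPM late and 706 to 854 CPM early, beside 741 CPM on day 0. The higher count was 0 without day 2 and 2 without day 6 or day 7. Tie1, a receptor of endothelial cells, had 2.82, 13.8 and 19.4 CPM late and no count early, which makes it at least 20.2-fold higher, taking 3 counts over the early group as the floor. Nos3, endothelial nitric oxide synthase and not on the list, was at 8.46, 8.64 and 12.9 CPM late, also with no count early, and was at least 16.8-fold higher. The tight junction gene Cldn5 had 30.5, 26.5 and 55.3 CPM late and 0, 1.27 and 7.32 CPM early (3.61 ± 0.68, adjusted p = 0.0125, edgeR). Pecam1, Egfl7 and Cdh5 were higher by 3.09 ± 0.74, 2.03 ± 0.37 and 1.99 ± 0.45. Eng, a TGF-beta co-receptor that fibroblasts also express, was lower at -1.64 ± 0.30, and Kdr (0.91 ± 0.59) and Tek (1.63 ± 0.90) did not pass. Of 6 endothelial markers, 5 were detected in at least 3 libraries and none was at 0 in all, and their sum was 138 to 276 CPM late and 32.6 to 131 CPM early. That sum was mostly Kdr and Cdh5. Kdr overlapped between the groups, at 154, 69.7 and 178 CPM late and 10.1, 87.2 and 113 CPM early. Cdh5 is among the higher genes above, so the sum is no separate check on cell type. Stab1, a scavenger receptor of sinusoidal endothelium and macrophages, had 14.7, 26.5 and 67.6 CPM late and 0.592, 1.91 and 2.25 CPM early (4.43 ± 0.69). The sum of 7 macrophage markers was near 0 and not higher late, at 3.46 to 6.47 CPM against 8.88 to 17.2 CPM. A wider list of 18 macrophage genes summed to 32.7 to 64.1 CPM late and 51.2 to 87.6 CPM early. Of its 5 members tested, 4 had a log2 change below 0 and 1 a change above, at 5.88. None passed in edgeR's test of the 6 libraries, but DESeq2 called 1 higher. The fit of 24 libraries, described further on, called 1 higher and 1 lower.

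Of 16 imprinted genes, many of which control fetal growth, 7 were higher and 1 was lower, with a median of 0.88. The higher count was 0 without day 2 and 4 without day 1, 6 or 7. The noncoding RNA Meg3 had 126, 298 and 403 CPM late and 46.2, 63.0 and 62.5 CPM early (2.24 ± 0.36, adjusted p = 0.00714, edgeR). Mest changed by 1.96 ± 0.34, Peg3 by 1.55 ± 0.34 and Zim1 by 3.02 ± 0.69. H19, a noncoding RNA among the most abundant here, was at 15294, 12819 and 16606 CPM late and 7964, 7023 and 9377 CPM early (0.85 ± 0.16). Igf2, its neighbour at the same imprinted locus, did not pass, with 3777, 3819 and 4360 CPM late and 4348, 4415 and 4258 CPM early (-0.15 ± 0.14, adjusted p = 0.574, edgeR). The cell cycle inhibitor Cdkn1c was the lower member, at -1.09 ± 0.24.

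Signalling genes went in both directions. In BMP and TGF-beta signalling 6 of 26 genes were higher and 4 lower. The BMP target genes Id2, Id3 and Id1, inhibitors of basic helix-loop-helix factors, rose by 1.80 ± 0.38, 1.53 ± 0.29 and 1.33 ± 0.23, and Msx2 by 2.28 ± 0.46. Smad9, a transducer of BMP receptors, had 5.08, 22.5 and 28.2 CPM late and 0.592, 1.91 and 0.563 CPM early (4.10 ± 0.77, adjusted p = 0.0126, edgeR). The ligand Bmp2 was lower, at 6.21, 9.79 and 8.82 CPM late and 101, 91.0 and 57.4 CPM early (-3.34 ± 0.31, adjusted p = 0.000566, edgeR), as was the BMP antagonist Grem1 (-1.82 ± 0.30). On day 0, 5 of the 6 higher genes stood above every early library, and 2 of these above every late library as well. Of the 4 lower genes, 2 stood above every early and late library on day 0. Summed over the list, the level was 1496 to 1544 CPM late and 1148 to 1319 CPM early, beside 3105 CPM on day 0. The higher count was 3 without day 1 and 0 without day 2 or day 6, and the lower count was 2 without day 2.

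Of 24 Wnt targets 3 were higher and none lower: Lgr5 and Rnf43, which tune Wnt receptors, by 2.58 ± 0.56 and 2.20 ± 0.41, and the Wnt-responsive transcription factor Lef1 by 1.51 ± 0.33. By limma on TPM the count was 0 with either pseudocount, as it was for the higher FGF and ERK genes. Without day 1 or day 2 the count was 1, without day 6 it was 0 and without day 5 it was 5. In the Notch list 1 of 16 was higher, the receptor Notch3 (2.20 ± 0.33), and 2 were lower, the Notch-modifying enzyme Lfng (-2.68 ± 0.23) and the ligand Dll4 (-1.52 ± 0.27). In FGF and ERK feedback 3 of 19 were higher and 1 lower, and the higher count was 1 without day 3 and 0 without day 1, 2, 6 or 7.

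Jdp2 belongs to the AP-1 family of transcription factors, as a repressor. Of 15 subunit genes 3 were lower, Fosl1 at -3.09 ± 0.52, Mafk at -1.77 ± 0.35 and Junb at -1.03 ± 0.28, and none higher. Of 14 AP-1 responsive genes 3 were lower, the chemokine Ccl2 at -3.002 ± 0.56, the protease Plau at -1.89 ± 0.42 and the hyaluronan receptor Cd44 at -1.78 ± 0.43. The responsive count was 7 without day 5, 1 without day 2 or day 7 and 0 without day 1 or day 6, and the subunit count was 1 without day 1 or day 6 and 0 without day 2. Fosl1 had 1.69, 1.15 and 1.76 CPM late and 17.2, 14.0 and 9.01 CPM early, and Jun (0.13 ± 0.30) did not pass. On day 0, 2 of the 3 lower subunit genes stood above every early and late library, among them Fosl1 at 92.6 CPM.

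Among 26 lysosome and autophagy genes, 5 were lower and none higher, with a median of -0.29. The count was 3 without day 1, 0 without day 2 and 2 without day 6. The protease gene Ctsd had 299, 305 and 284 CPM late and 735, 644 and 541 CPM early (-1.14 ± 0.18, adjusted p = 0.00657, edgeR). Tfeb, a regulator of lysosomal genes, changed by -1.33 ± 0.24, the proton pump subunit gene Atp6v1h by -1.20 ± 0.20 and Lamp1 by -0.98 ± 0.19.

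None of 25 ribosomal protein genes passed in edgeR's test, with 13 higher at an unadjusted p under 0.05, and DESeq2 called 4 higher. In the fit of 24 libraries, described further on, edgeR called 12 of them higher without Esrrb. The median was 0.39, and in 19 of them every late library lay above every early one. In mitosis, 2 of 28 were higher with a median of 0.41, and in DNA replication none of 27 was higher and 1 was lower. The pluripotency network had 15 members tested, of which 1 was higher and 1 lower, Klf2 (-2.05 ± 0.54), with a median of 0.74. Pou5f1 had 11.3, 11.5 and 6.47 CPM late and 18.4, 22.3 and 6.76 CPM early (-0.71 ± 0.47, adjusted p = 0.386, edgeR), and Sox2 (-0.02 ± 0.50) and Nanog (0.74 ± 1.01) did not pass either. The 6 pluripotency markers, of which 3 were detected in at least 3 libraries, summed to 29.4 to 42.6 CPM late and 23.7 to 58.5 CPM early.

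The largest rises outside the lists joined genes of differing roles. Bmf, a pro-apoptotic relative of Bcl2, had 11.8, 47.2 and 52.9 CPM late and 1.78, 0 and 0.563 CPM early (5.41 ± 0.78, adjusted p = 0.00465, edgeR). The noncoding RNA Snhg11 rose by 5.11 ± 0.86, Zfr2 by 4.37 ± 0.999, the sterol hydroxylase Cyp27a1 by 4.08 ± 0.62 and the secreted glycoprotein Reln by 3.98 ± 0.52. Gfi1b, a repressor of blood development, had 52 counts late and 1 early, a ratio of 50.3 with an interval of 8.63 to 2020. Rimklb had 62 and 2 counts (ratio 30.0, interval 7.96 to 253) and Efcab1 had 71 and 3 (ratio 22.9, interval 7.52 to 114). In each of these genes day 5 was the lowest of the late libraries.

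Several of the largest falls were of genes that had been higher on days 1 to 3 than on day 0. Amh, which encodes anti-Müllerian hormone, had 1.69, 5.18 and 0 CPM late and 48.5, 60.4 and 43.4 CPM early (-4.45 ± 0.55, adjusted p = 0.00207, edgeR), beside 2.28 CPM on day 0. Sost, a secreted Wnt inhibitor, had 6.21, 1.73 and 2.94 CPM late and 78.7, 73.8 and 35.5 CPM early (-4.10 ± 0.46). Mylk2, a muscle myosin kinase, had 22.0, 12.7 and 11.2 CPM late and 261, 175 and 119.9 CPM early (-3.62 ± 0.35). In all 3 the early libraries were above day 0 as well as above the late ones. Fstl4, Padi1, Mchr1 and Nol4 had log2 changes of -4.35, -4.35, -4.35 and -4.11, and Slc18a3, which loads acetylcholine into vesicles, one of -3.92. Psors1c2, Klhdc8a, Smim5 and the ligand Wnt7b stood at -3.88, -3.86, -3.71 and -3.63. Cntn2, a neuronal adhesion gene, had 2 counts late and 65 early (ratio 0.0298, interval 0.00353 to 0.112), and the homeobox gene Uncx 3 and 52 (ratio 0.0558, interval 0.0111 to 0.172).

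The delivered factors themselves were lower late. Jdp2 was at 679, 428 and 567 CPM late and 1615, 1358 and 1244 CPM early, a log2 change of -1.36 ± 0.20 (adjusted p = 0.00564, edgeR). Sall4 had 2922, 1861 and 2316 CPM late and 5402, 5168 and 4988 CPM early (-1.16 ± 0.18), and Glis1 had 304, 271 and 366 CPM late and 534, 479 and 499.9 CPM early (-0.71 ± 0.18). In each of the 3 every late library lay below every early one, as in 598 of the 603 lower genes and 14% of all genes tested. The count of lower factors was 1 without day 2, and the part of the factors in the other changes was not tested. Retroviral and endogenous transcripts are counted together. Esrrb, not delivered, stood at 12.4, 19.004 and 7.06 CPM late and 10.1, 57.9 and 12.4 CPM early (-1.07 ± 0.63, adjusted p = 0.324, edgeR), with day 2 apart from the rest.

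**Figure D4:**
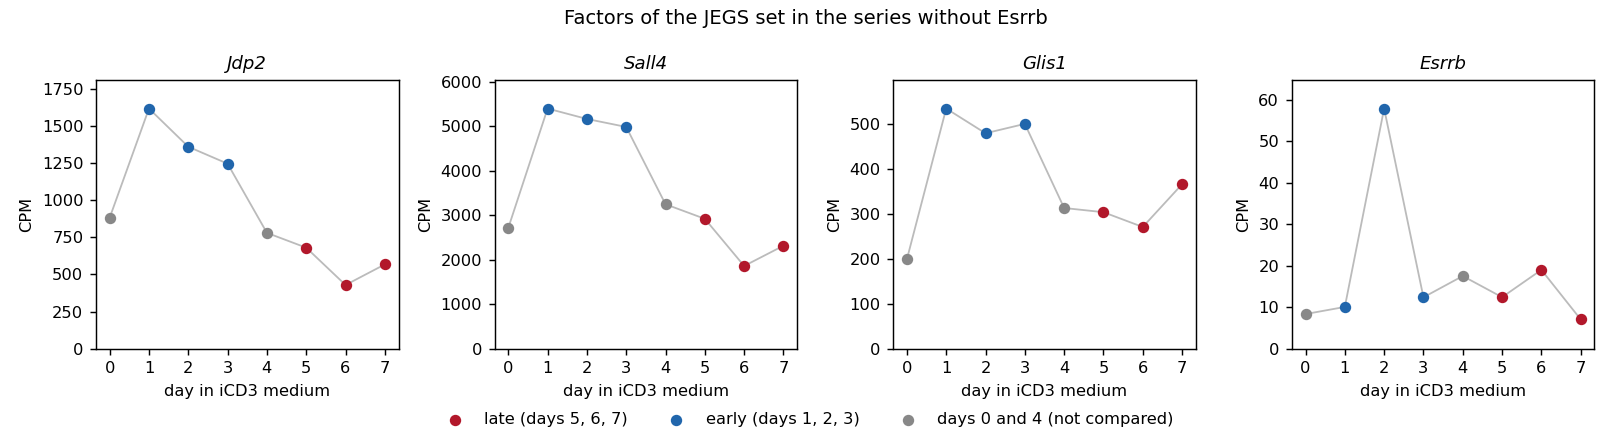
Level in CPM (linear axis from 0, a separate scale per panel) of the 3 delivered factors and of Esrrb by day, 1 library per day; red points are days 5, 6 and 7, blue points days 1, 2 and 3, and grey points days 0 and 4. Jdp2, Sall4 and Glis1 are highest on days 1 to 3, and Esrrb has 1 high library, at 57.9 CPM on day 2.

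Whether these changes differed from those of the other leave-out arms was tested in a joint fit of 24 libraries, as the late against early change without Esrrb minus the mean of the changes without Jdp2, Glis1 and Sall4. Of 17679 genes tested, 1001 differed (5.66%), 380 upward (2.15%) and 621 downward (3.51%). Against single arms, 159 genes differed from the arm without Jdp2 (0.899%), 1249 from that without Glis1 (7.06%) and 937 from that without Sall4 (5.3%). The 6 libraries had lower totals than the 18 others (1672386 to 3608456 counts) and mean fragment lengths of 201.8 to 205.7 bases, against 205.2 to 213.3 bases. A library difference between arms and the missing factor cannot be told apart, although each arm's change is taken within the arm.

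Glycolysis genes rose more without Esrrb than in the mean of the other arms for 11 of 20 members and less for none. In this fit 14 members were higher late without Esrrb (6.2% of all genes were) and 11 without Jdp2 (3.65%), but none without Glis1 (1.76%) or Sall4 (0.356%). The medians were 1.19 without Esrrb, 0.82 without Jdp2, 0.18 without Glis1 and -0.22 without Sall4. On the hypoxia list 4 of 17 members differed upward from the mean of the other arms and 0 downward. Late against early, 8 of them were higher and 1 lower without Esrrb, and 10 were higher without Jdp2. Without Glis1 or Sall4 0 were higher. The hypoxia medians were 0.732 without Esrrb, 1.118 without Jdp2, 0.206 without Glis1 and 0.132 without Sall4, so the arm without Jdp2 shared this rise. Slc16a3 changed by 3.67 ± 0.40 without Esrrb, against 2.31 ± 0.35 without Jdp2, -1.06 ± 0.73 without Glis1 and -0.38 ± 0.44 without Sall4, a difference of 3.38 ± 0.50 from their mean (adjusted p = 0.000272, edgeR). Its difference from the arm without Jdp2 did not pass, at 1.36 ± 0.52 (adjusted p = 0.267, edgeR). Pfkl changed by 2.60 ± 0.21 without Esrrb and 2.497 ± 0.21 without Jdp2, 0.11 ± 0.29 apart. Bnip3 changed by 6.51 ± 0.79 without Esrrb and 5.31 ± 0.63 without Jdp2, against 0.80 ± 0.84 and 0.54 ± 0.85 without Glis1 and Sall4. In JEGS, with 1 library a day and no test, Bnip3 had 0, 2.24 and 60.1 CPM on days 2, 4 and 6, and Slc16a3 had 13.9, 11.2 and 151 CPM.

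Epithelial genes differed in the other direction, downward in 7 of 25 and upward in none. Cdh1 changed by -2.36 ± 0.40 without Esrrb, against 1.15 ± 0.37 without Jdp2, 1.44 ± 0.44 without Glis1 and 0.59 ± 0.41 without Sall4 (difference -3.42 ± 0.47, adjusted p = 0.000167, edgeR), and it differed from each arm on its own. From days 1 to 7 without Jdp2 it had 38.2, 73.5, 170, 252, 259, 232 and 147 CPM, and in JEGS 91.9, 141 and 143 CPM on days 2, 4 and 6. Krt8 differed by -3.57 ± 0.65 and Ocln by -3.28 ± 0.72 from the mean. Against the arm without Jdp2, Krt8 passed (-3.34 ± 0.69, adjusted p = 0.0152, edgeR) and Ocln did not (-2.89 ± 0.86, adjusted p = 0.117, edgeR). Snai2 and Twist1 differed upward, by 2.40 ± 0.46 and 1.75 ± 0.24, and Twist1 also against the arm without Jdp2 alone (1.92 ± 0.30).

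**Figure D5:**
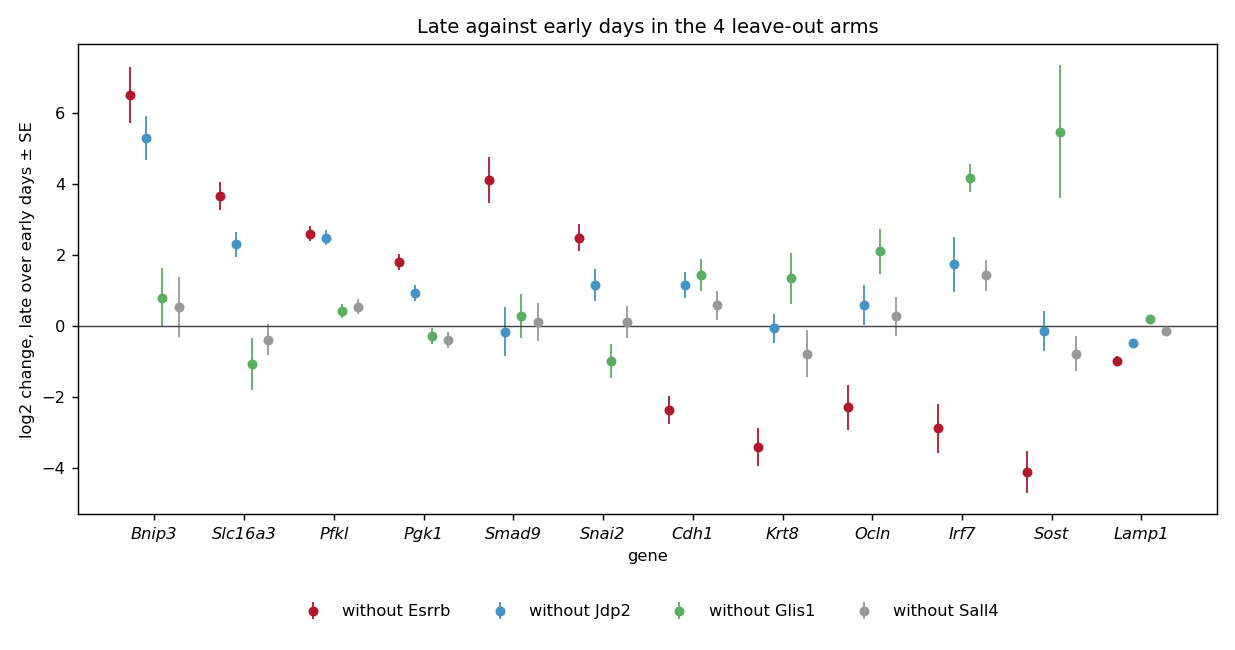
Log2 change of late over early days ± SE for 12 genes in each of the 4 leave-out arms, from the fit of 24 libraries. Bnip3, Slc16a3, Pfkl and Pgk1 are above 0 without Esrrb and without Jdp2, whereas Cdh1 and Irf7 are below 0 without Esrrb and above 0 in every other arm.

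Other groups also differed from the mean of the arms, in part through single arms. Interferon-stimulated genes differed downward in 7 of 28, with medians of -1.11 without Esrrb, 0.19 without Jdp2, 3.47 without Glis1 and 1.117 without Sall4, and 26 of the 28 were higher late without Glis1. MHC class I genes differed downward in 6 of 13, with medians of -0.38 without Esrrb, 0.12 without Jdp2, 1.81 without Glis1, where 10 were higher late, and 0.55 without Sall4. Lysosome genes differed downward in 7 of 26, among them Ctsd at -1.12 ± 0.20. Late against early in the fit of 24 libraries, 8 of them were lower without Esrrb and 6 without Jdp2, while 6 were higher without Glis1 and 1 without Sall4. In that fit 1373 of 17679 genes were lower without Esrrb. The count of all genes lower in the other arms is not given here, so the lower counts cannot be set against it. Ribosomal protein genes differed upward in 14 of 25, by 0.48 to 0.68, and imprinted genes in 4 of 16, with medians of 0.88 without Esrrb and 0.59 without Jdp2 for the late against early change of the imprinted list. Endothelial genes differed in 1 of 16, upward. Late against early, 5 of them were higher without Esrrb and 9 without Jdp2, with medians of 1.82 and 1.63. Without Glis1 1 was higher and without Sall4 0, with medians of 0.72 and 0.10. Among collagen genes 1 of 20 differed, downward, with medians of -1.46 without Esrrb, -1.09 without Glis1, -0.84 without Jdp2 and -0.47 without Sall4. Of 16 contractile genes 0 differed. Bmp2 differed by -3.91 ± 0.45 and Id1 by 1.71 ± 0.31. Pou5f1 differed by -3.48 ± 0.89 from the mean (adjusted p = 0.0213, edgeR), with a change of 5.28 ± 0.68 without Jdp2. Against the arms without Glis1 and Sall4 its difference did not pass, with adjusted p = 0.146 and 0.56 (edgeR).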

How the data were processed

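RNA was sequenced in 35 libraries, of which 6 enter the main comparison and 24 the comparison between arms. The submitters' processing notes name bcl2fastq, Bowtie2, RSEM and the mm10 build, with no versions; the annotation release is not given in the sources used here. Each library has 1 deposited gene table, and RSEM's expected counts in it are estimates per gene without normalization, per the file headers. The TPM column of the deposited tables served one alternative. Of 54752 genes, 54723 were matched to a symbol. RSEM divides reads shared between paralogs, so keratins and other close families are less certain.

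Expected counts, rounded to whole numbers, were fitted with edgeR 4.0.16 in R 4.3.3 (TMM scaling, at least 1 CPM in 3 libraries, quasi-likelihood F test, two-sided, Benjamini-Hochberg over all genes tested). Printed CPM use TMM factors over all 35 libraries, and fold changes those of the libraries fitted. SE is the log2 change divided by the square root of F. Depth was 1444905 to 1651712 counts in the 6 libraries. Floors and intervals (exact binomial) cover counting error only. The code was tested on simulated data.

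Members and lists were chosen with earlier results of these data known. The text names the delivered factors, up to 4 members per list with the largest change past the threshold and a mean of at least 5 CPM, the 15 largest rises and falls without overlap, and the 5 largest differences between arms in each direction with 1 sign against every arm, leaving out predicted genes; further list members are given to describe a list. A few members chosen this way are left out of the text. Alternatives were DESeq2 1.42.0, its size factors, no filter, limma 3.58.1 on TPM, other day groupings or slopes, the factors left out, and each library left out. Python 3.11.15 with pandas 2.3.3, numpy 2.4.6 and matplotlib 3.10.9 read the tables and drew the plots.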

Additional observations from a re-analysis of the deposited data

Results flagged for a closer look

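The 10 genes named for the largest difference between the series without Esrrb and the mean of the other leave-out arms are given here with that difference in log2 late over early change, all past the threshold in edgeR's quasi-likelihood test. Upward, Stab1 differed by 4.37 ± 0.74 (SE), Bnip3 by 4.30 ± 1.05, Smad9 by 4.04 ± 0.76, Bmf by 3.98 ± 0.86 and Zcchc18 by 3.49 ± 0.97. Of these, Smad9 also differed from the arm without Jdp2 alone (4.27 ± 0.99, adjusted p = 0.0324, edgeR), while Stab1 (3.36 ± 0.91, adjusted p = 0.081, edgeR), Bnip3, Bmf and Zcchc18 did not pass there.

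Downward, Slc18a3 differed by -6.60 ± 1.41, Sost by -5.63 ± 0.87, Irf7 by -5.33 ± 0.74, Amh by -5.29 ± 0.93 and Elfn2 by -5.15 ± 0.84. Irf7, the master regulator of type I interferon genes, had 0.564, 2.88 and 1.76 CPM on days 5, 6 and 7 and 13.0, 15.9 and 10.1 CPM on days 1, 2 and 3 without Esrrb. Without Glis1 it had 158, 277 and 367 CPM late and 3.50, 13.2 and 28.7 CPM early. Sost, Irf7, Amh and Elfn2 also differed from the arm without Jdp2 alone, and Slc18a3 did not (-4.51 ± 1.38, adjusted p = 0.143, edgeR). Without Glis1, Sost and Elfn2 were at 0 in all 3 early libraries and Amh at 0, 0.601 and 0 CPM, so their fitted changes in that arm, and the differences given here, depend on the prior count and are not bounds.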

How the results depend on the processing

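Within the series without Esrrb no paired analysis was possible, because each day occurs once and the labels give no replicate numbers. The leave-out arms share their days, but the fit of 24 libraries had no term for day, so it did not pair the arms by day. With 1 library left out, a comparison of 3 against 2 libraries, the count of changed genes was 128 to 2804 (34 to 1277 higher, 94 to 1527 lower), and that of differences from the mean of the other arms 503 to 1741 (165 to 703 upward, 338 to 1038 downward). The main 1047 became 2059 (973 higher, 1086 lower) with no filter on low counts, 384 (127, 257) by limma on log2(TPM + 1), 215 (65, 150) on log2(TPM + 0.1), 2469 (1096, 1373) in the fit of 24 libraries, 2770 (1253, 1517) for days 6 and 7 against 1 and 2, 2010 (967, 1043) as a slope over days 1 to 7 and 1809 (807, 1002) over days 0 to 7. DESeq2 (1296) and its size factors (1053) stayed within 1.5 times. Differences from the mean were 1547 with no filter (980 downward), and 217 upward by limma on TPM. DESeq2 gave 334 differences from the arm without Jdp2 (144 upward, 190 downward) and 536 upward from that without Sall4. Of the values recomputed for named and listed genes in the late against early comparison, 1452 kept their side of the threshold, 453 kept their sign but no longer passed, 1 (Esrrb, with no filter) newly passed and 1 reversed, Asns, at -0.059 per day over days 0 to 7. By limma on log2(TPM + 0.1) and on log2(TPM + 1), the endothelial and the imprinted higher counts were each 1 and 2, the BMP higher count 1 and 3, the contractile lower count 1 and 1 and the Hox lower count 0 and 1. The causes were not tested.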

Other observations

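Further gene groups, not described above, are given here for late against early days without Esrrb, beside 3.02% higher and 4.11% lower of all genes tested. Among 18 genes of the NRF2 and glutathione response 4 were lower and none higher: the metallothionein Mt1 by a log2 change of -1.61 ± 0.23 (SE, edgeR), Gsto1 by -1.79 ± 0.31 and Srxn1 by -1.52 ± 0.29. Osgin1, the other one, had no count late and was at least 6.19-fold lower. Without day 1, 2 or 6 the count was 2, 1 and 1. Among 11 chemokine and cytokine genes of fibroblasts 4 were lower, among them Il11 at -3.16 ± 0.43, and 2 were higher, the chemokine Cxcl12 at 2.12 ± 0.44 and Nfkbia at 1.14 ± 0.29, and the lower count was 1 to 4 with a library left out. In cartilage and bone genes 2 of 16 were higher, among them the cartilage collagen Col2a1 at 2.71 ± 0.39, and 2 were lower, the matrix gene Comp at -2.53 ± 0.49 and Sost. Of 30 Hox genes Hoxa9 was higher (1.62 ± 0.27) and Hoxd13, Hoxc8 and Hoxc6 were lower (-2.18 ± 0.54, -1.59 ± 0.40 and -1.41 ± 0.27), and the lower count was 0 to 6 with a library left out. Sox7, a transcription factor of primitive endoderm and endothelium, had 12.4, 36.9 and 51.2 CPM on days 5, 6 and 7 and 3.55, 1.91 and 1.13 CPM on days 1, 2 and 3 (3.86 ± 0.61, adjusted p = 0.0067, edgeR).

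None of 28 sterol and fatty acid synthesis genes and none of 21 NuRD and PRC2 genes passed in edgeR's test, with medians of -0.35 and 0.24. At an unadjusted p under 0.05, 1 sterol gene was higher and 3 were lower, and 5 NuRD and PRC2 genes were higher and 1 lower, and DESeq2 called 0 and 1 of them. Among genes of the ATF4 and unfolded protein response the chaperones Hspa5 and Calr were lower (-0.99 ± 0.23 and -0.94 ± 0.25) and the asparagine synthetase Asns higher (1.53 ± 0.36), 3 of 24. Cartilage and bone markers summed to 134 to 191 CPM late and 149 to 157 CPM early. Skeletal muscle markers summed to 1.69 to 3.53 CPM late and 1.13 to 9.47 CPM early, with Myod1 and Myog at 0 in all 6 libraries, and red blood cell markers to 2.26 to 4.70 CPM late and 1.13 to 2.54 CPM early.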
